A study of Mus musculus with 6 samples.

Results

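The SOCS family, its close relative Cish and the STAT5 genes were followed in type 2 conventional dendritic cells (cDC2s) of mouse spleen with and without the transcription factor IRF4. The members were taken by gene symbol from the count table: Socs1 to Socs7, Cish, Stat5a and Stat5b, 10 genes of 14535 in all. The WT group and the IRF4-deficient group each hold 3 RNA-seq libraries of cDC2s from C57BL/6 spleen. IRF4-deficient means CD11c-Cre Irf4fl/fl, so a Cre recombinase driven by the CD11c (Itgax) promoter removes the floxed part of Irf4 in cells that use this promoter, while WT is given without any allele. A group with Cre or the floxed allele alone was not analysed here, so effects of these alleles cannot be told apart from that of losing Irf4. The sources used here give no ages, pooling or sort gate, and do not say whether replicates are separate mice. Every p-value therefore measures a spread between libraries that may be technical only.

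Cytokine receptors without a kinase of their own signal through Janus kinases (JAKs), which phosphorylate STAT proteins that then enter the nucleus and switch on target genes. Several of those targets encode SOCS proteins, which bind the receptor or the JAK through an SH2 domain and recruit a ubiquitin ligase through a C-terminal SOCS box, so the pathway carries its own brake. In dendritic cells STAT5 is known as the main transducer of GM-CSF (the growth factor encoded by Csf2) and of thymic stromal lymphopoietin, SOCS1 as a brake on interferon signalling, SOCS3 as a brake on receptors of the gp130 type, and SOCS2 and CIS (the Cish product) as STAT5-induced feedback proteins.

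Start site windows of the classical feedback genes Cish, Socs3 and Socs1 hold letter matches to motifs of cytokine and interferon signalling, and are printed here. RefSeq start site windows (GRCm38.p6, from 250 bases before to 50 bases after the start) were matched for 6 of the 10 members, with 8 windows. Those of Socs2, Socs5, Socs6 and Socs7 were not analysed here. Capitals mark TTCNNNGAA, the palindromic GAS element bound by STAT dimers, in Cish and Socs3, and GAAA repeated after 2 bases of any kind, the interferon-stimulated response element (ISRE) bound by interferon-activated factors and IRF proteins, in Socs1. Both motifs were searched on both strands, and the sequences run 5′ to 3′ on the strand of the gene up to 30 bases after the start.
Cish, chr9:107296409-107296688, plus strand: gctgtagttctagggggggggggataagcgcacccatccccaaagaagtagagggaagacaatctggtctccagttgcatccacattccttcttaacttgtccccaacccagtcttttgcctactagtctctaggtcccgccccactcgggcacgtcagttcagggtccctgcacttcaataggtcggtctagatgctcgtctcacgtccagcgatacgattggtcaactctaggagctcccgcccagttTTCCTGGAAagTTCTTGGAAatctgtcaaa
Socs3, chr11:117969337-117969616, minus strand: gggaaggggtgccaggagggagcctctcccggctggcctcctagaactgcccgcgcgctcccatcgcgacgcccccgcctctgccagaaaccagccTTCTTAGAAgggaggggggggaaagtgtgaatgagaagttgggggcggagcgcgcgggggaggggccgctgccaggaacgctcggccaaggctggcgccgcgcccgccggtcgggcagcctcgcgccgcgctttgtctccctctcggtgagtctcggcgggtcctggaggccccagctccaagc
Socs1, chr16:10785507-10785786, minus strand: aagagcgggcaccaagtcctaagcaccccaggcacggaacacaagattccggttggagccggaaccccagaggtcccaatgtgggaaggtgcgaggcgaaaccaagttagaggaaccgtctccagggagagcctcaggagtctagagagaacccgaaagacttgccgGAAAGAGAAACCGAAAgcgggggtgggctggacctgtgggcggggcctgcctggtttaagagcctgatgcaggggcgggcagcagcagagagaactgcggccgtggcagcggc
The Cish window held 2 GAS matches, TTCCTGGAA from position 1 and TTCTTGGAA from position 12 of the transcript. The Socs3 window held 1, TTCTTAGAA, which begins 154 bases before the start. The Socs1 window held 2 overlapping ISRE matches, beginning 83 and 77 bases before the start. Among all 32851 windows of this length, 8.30% held a GAS match and 3.44% an ISRE match. In the GENCODE M21 annotation the upstream end of Cish is at 107296026 and that of Socs3 at 117970047. The RefSeq windows of both thus lie inside the annotated genes. Binding of any factor at these matches was not tested. No window of Socs4, Stat5a or Stat5b held either motif, and none of the 8 held the composite ETS-IRF element (GGAA and GAAA with 2 bases between them, 2.72% of all windows) or the AP-1 element TGANTCA (7.81%), which says only that these letters are absent from these windows.

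As the targeted gene, Irf4 stood at 292, 296 and 345 CPM in WT replicates 1 to 3 and at 90.8, 65.3 and 84.0 CPM in IRF4-deficient replicates 1 to 3. No library went against its label. CPM is a gene's count relative to the total of its library, which was corrected with TMM factors for differences in library make-up. Library totals lay between 7421605 and 11459920 counts, so that 1 CPM stands for about 7 to 11 counts. Of 12 markers of cDC2s, all had counts, among them Itgax, Sirpa, H2-Aa and Zbtb46. Their levels were not all alike between the groups. In the edgeR test described below, 6 of the 12 were called lower and 2 higher, beside 10.5% and 9.87% of all tested genes. The second principal component, with 13.95% of the variance, set IRF4-deficient replicate 3 apart. WT replicate 3 was low in immediate early genes, whose levels summed to 2378 CPM there, to 5718 and 5206 CPM in the other WT libraries, and to between 3480 and 3982 CPM without IRF4. For members whose values rest on these libraries, the values without them are also given.

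Among the 10 members, Socs2 fell more than 11-fold in IRF4-deficient cDC2s and Socs4 fell by less than a factor of 2, while none rose. Stat5a and Stat5b, Socs3, Socs5, Socs6, Socs7 and Socs1 did not pass the test, and Cish was too low in both groups to be tested. Of the 9 members that passed the filter on low counts, 2 were called lower and 0 higher by edgeR's quasi-likelihood test at a Benjamini-Hochberg adjusted p under 0.05 over all 11934 tested genes. Across all tested genes 20.4% were called, 10.5% lower and 9.87% higher, so 2 of 9 is close to the share of all genes and says nothing particular about the family as a group. The median log2 fold change of the 9 was 0.04, beside 0.0025 for all tested genes. The groups did not overlap in these same 2 members, and did not overlap in 35.6% of all tested genes, 18.1% lower and 17.5% higher.

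**Figure D1:**
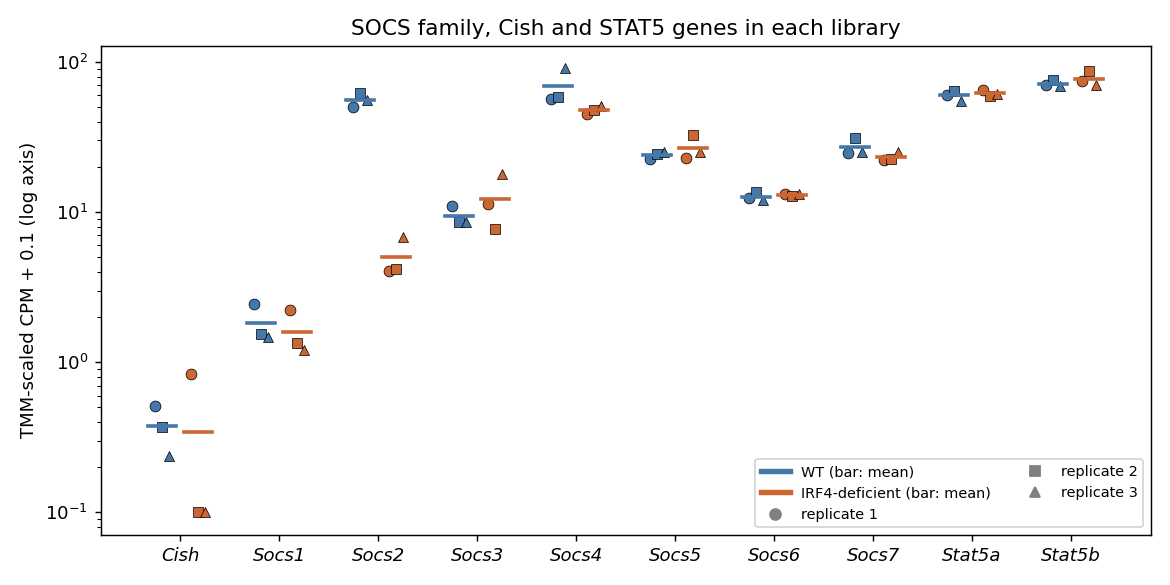
TMM-scaled CPM plus 0.1, on a log axis, of each of the 10 genes in each of the 6 libraries (blue WT, orange IRF4-deficient, bars group means, symbols replicates 1 to 3). Socs2 is the gene whose groups lie farthest apart, with 50.2 to 62.1 CPM in WT and 3.96 to 6.68 CPM in IRF4-deficient libraries, while Stat5a and Stat5b overlap between the groups.

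Socs2 encodes the SOCS protein best known for limiting growth hormone signalling and is induced by STAT5. It lies on the minus strand of chromosome 10, from 95385362 to 95417180 in GRCm38, with 14 annotated transcripts. Its level was 50.2, 62.1 and 55.6 CPM in WT replicates 1 to 3 and 3.96, 4.08 and 6.68 CPM in IRF4-deficient replicates 1 to 3. Every WT library stood far above every IRF4-deficient one, and IRF4-deficient replicate 3 was the highest of its group. The means were 55.96 ± 5.95 and 4.91 ± 1.54 CPM (SD, n = 3 each), from 1453 and 136 counts in all. On the log2 scale the fold change was -3.52 (standard error, SE, 0.21, 95% interval -3.95 to -3.08, edgeR adjusted p = 5.57e-10). This left 8.75% of the WT level, with an interval of 6.47 to 11.8%. In these bulk samples fewer Socs2-expressing cells and less Socs2 RNA per cell cannot be told apart.

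By the size of its change Socs2 ranked 48th of 11934 tested genes, and 17th among the decreases. By p it ranked 23rd, ahead of the deleted gene Irf4 at 31st. Irf4 counts are for the whole gene and cannot be split by exon, and the source of those left in IRF4-deficient libraries was not tested. The decrease was called in each of 15 other fits, with log2 fold changes between -3.81 and -3.36 and adjusted p-values of at most 1.1e-07. In WT replicate 3, where immediate early genes were low, Socs2 lay between the values of the other WT libraries.

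No tested gene near Socs2 was called with it. Within 500000 bases on either side, 5 genes were tested, Plxnc1, Cradd, Mrpl42, Ube2n and Nudt4, and none was called. These neighbours were looked up after the Socs2 values were known. The exception in kind was 5730420D15Rik, a long noncoding RNA annotated as starting from a bidirectional promoter, on the plus strand from 95417375 to 95428640, which begins 195 bases from the upstream end of Socs2. It had 4, 22 and 12 counts in WT replicates 1 to 3 and 0 counts in every IRF4-deficient library, so its 2 groups did not overlap. The pooled WT level, from 38 counts, was 13.8 times a floor of 3 counts over the IRF4-deficient group. This figure leaves out the counting error and the spread of the WT libraries. It did not pass the low-count filter and has no test here. Its exons share no base with those of Socs2, but 4.58% of the 50-base windows of Socs2 transcripts also occur in transcripts of other genes, so a small part of the Socs2 counts is uncertain.

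The genes most like Socs2 in their profile over the 6 libraries were Ciita, Dnase1l3, Sp140, Fem1c and Aph1c, with Pearson's r of 0.999, 0.998, 0.998, 0.998 and 0.997 on log2(CPM + 0.5), among 9131 genes with a mean of at least 5 CPM. With 2 groups of 3, this likeness is largely the shared genotype difference, and it is given as a description. Their own changes were smaller than that of Socs2. Ciita, the transactivator of MHC class II genes, had a log2 fold change of -0.31, and Aph1c, a gamma-secretase subunit gene, one of -1.18.

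Socs4, one of the less studied family members with a long N-terminal region, stood at 56.6, 58.5 and 90.8 CPM in WT replicates 1 to 3 and at 44.7, 47.7 and 51.1 CPM in IRF4-deficient replicates 1 to 3. The groups did not overlap, but WT replicate 3 was far above the rest of its group. The means were 68.6 ± 19.2 and 47.8 ± 3.19 CPM (SD, n = 3 each), with a log2 fold change of -0.52 (SE 0.16, 95% interval -0.86 to -0.18, edgeR adjusted p = 0.0306). Without WT replicate 3 the log2 fold change was -0.27 and the gene was not called (edgeR adjusted p = 0.253). Nor was it called without IRF4-deficient replicate 1 or 2 (edgeR adjusted p = 0.0973 and 0.0857). The part that the state of WT replicate 3 has in this call was not tested. The Socs4 gene lies on the plus strand of chromosome 14, from 47276931 to 47296102.

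Socs3, the brake on gp130 receptors and on the G-CSF and leptin receptors, had 1 high IRF4-deficient library. It stood at 10.9, 8.55 and 8.47 CPM in WT replicates 1 to 3 and at 11.2, 7.66 and 17.7 CPM in IRF4-deficient replicates 1 to 3, so the groups overlapped and IRF4-deficient replicate 3 was the highest of all. Its log2 fold change was 0.39 (SE 0.29, 95% interval -0.21 to 1.0, edgeR adjusted p = 0.385). Without IRF4-deficient replicate 2 it was 0.64 (edgeR adjusted p = 0.138). Without IRF4-deficient replicate 3 it was 0.03 (edgeR adjusted p = 0.958), and without replicate 3 of both groups -0.03 (0.972). Most of the size of the Socs3 value thus rests on IRF4-deficient replicate 3. The same library had the highest summed level of 12 red pulp macrophage markers, 3199 CPM, while IRF4-deficient replicates 1 and 2 had 1762 and 2447 CPM and WT libraries 1229 to 1580 CPM. None of these 12 markers was at 0 in all libraries, and their part in the Socs3 level was not tested. The genes most like Socs3 over the 6 libraries were Rinl, Lin7c, Tmem184b, Kif5b and Foxj3 (Pearson's r 0.972 to 0.993).

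Socs5, Socs6 and Socs7, studied mostly in receptor tyrosine kinase and insulin signalling, showed no change past the test. Socs5 stood at 22.4 to 25.1 CPM in WT and at 22.8, 32.5 and 24.9 CPM in IRF4-deficient replicates 1 to 3. Its log2 fold change was 0.16 (95% interval -0.21 to 0.53). Socs6 lay at 12.0 to 13.5 CPM in WT and 12.7 to 13.2 CPM in IRF4-deficient libraries, with a log2 fold change of 0.04 (95% interval -0.41 to 0.49). Socs7 stood at 24.8 to 31.0 CPM in WT and 22.0 to 25.1 CPM in IRF4-deficient libraries, with a log2 fold change of -0.22 (95% interval -0.58 to 0.14). The groups overlapped for all 3 genes. For Socs5 and Socs6 these intervals leave room for changes of up to 1.44-fold and 1.41-fold upward, and for Socs7 for a decrease to 0.669 times the WT level.

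Socs1 and Cish were the lowest of the 10 members by CPM in WT. Socs1 stood at 2.35, 1.45 and 1.37 CPM in WT replicates 1 to 3 and at 2.12, 1.24 and 1.11 CPM in IRF4-deficient replicates 1 to 3, with 43 counts in each group and overlapping values. Its log2 fold change of -0.18 had an edgeR 95% interval of -1.37 to 1.0, which leaves room for a decrease to 0.388 times the WT level. The depth-scaled ratio of the 43 counts in each group was 0.915, with an exact binomial 95% interval of 0.585 to 1.43. This second interval covers counting error only and is narrower, so depth alone does not set the width of the edgeR interval. Cish, which encodes CIS and is often read as a reporter of STAT5 activity, had 3, 3 and 1 counts in WT replicates 1 to 3 and 8, 0 and 0 counts in IRF4-deficient replicates 1 to 3. The depth-scaled ratio of the 2 groups' 8 and 7 counts was 1.05, with an exact binomial 95% interval of 0.331 to 3.39 that covers counting error only. A library with 0 Cish counts allows a level of up to 0.371 CPM (IRF4-deficient replicate 2) or 0.334 CPM (IRF4-deficient replicate 3) at a floor of 3 counts. Cish did not pass the filter, and no direction can be read from it. Its exons also share 479 bases with an antisense gene and 261 bases with a pseudogene on the opposite strand. Without a known strand setting such reads cannot be told apart. Of the 50-base windows of Cish transcripts 9.35% also occur in transcripts of other genes, so part of its few counts is uncertain.

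**Figure D2:**
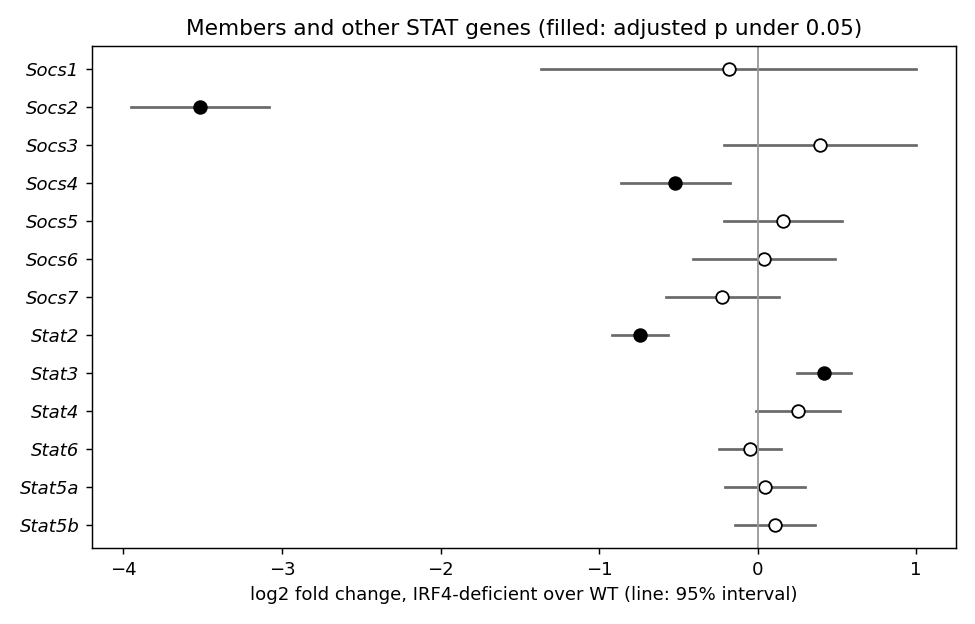
Log2 fold change, IRF4-deficient over WT, of the 9 tested members and of 4 other STAT genes, with 95% intervals (filled points passed an adjusted p under 0.05). Socs2 lies at -3.52, apart from all others, Socs4 and Stat2 lie lower and Stat3 higher, and the intervals of Stat5a, Stat5b, Socs1, Socs3, Socs5, Socs6 and Socs7 include 0.

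The decrease of Socs2 was also set against other members within each library through log2 ratios. These do not depend on library scaling except through the added 0.5 CPM. Socs1, Socs3 and Socs6 were not called, so ratios to them restate the fall of Socs2 and are no further test of it. The log2 ratio of Socs2 to Socs6 was 2.10 ± 0.104 in WT and -1.35 ± 0.383 in IRF4-deficient libraries (SD, n = 3 each). Against Socs3 it was 2.53 ± 0.336 and -1.19 ± 0.31. Both ratios changed sign, so Socs2 went from the more to the less abundant by count of each pair in every library. Relative to Socs1 the ratio differed by -3.25 between the groups. The ratio to Cish is set largely by the added 0.5 CPM and is not used. Each of the 3 ratios gave p = 0.10 in an exact two-sided permutation test, the smallest that 3 against 3 allows, and 0.163 after adjustment over the 13 ratios and shares tested.

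The make-up of the summed SOCS counts differed between the groups. Of all counts on the 7 Socs genes and Cish, Socs2 made up 27.9, 31.1 and 25.4% in WT replicates 1 to 3 and 3.28, 3.18 and 4.78% in IRF4-deficient replicates 1 to 3. Socs4 held the largest share in WT replicates 1 and 3 and in all IRF4-deficient libraries, and Socs2 in WT replicate 2. The share of Socs5 went from 12.0 ± 0.483 to 20.7 ± 4.05%, and that of Socs6 from 6.36 ± 0.747 to 10.1 ± 0.792% (SD, n = 3 each), although their own levels did not pass the test. A share of a sum rises when another part of the sum falls. The shares of Socs2, Socs5, Socs6 and Socs7 did not overlap between the groups (exact permutation p = 0.10 each, 0.163 adjusted). The summed level of the 8 genes was 199 ± 19.3 CPM in WT and 130 ± 9.50 CPM in IRF4-deficient libraries. Without Socs2 it was 143 ± 17.4 and 125 ± 8.09 CPM, with overlapping groups (exact permutation p = 0.20).

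**Figure D3:**
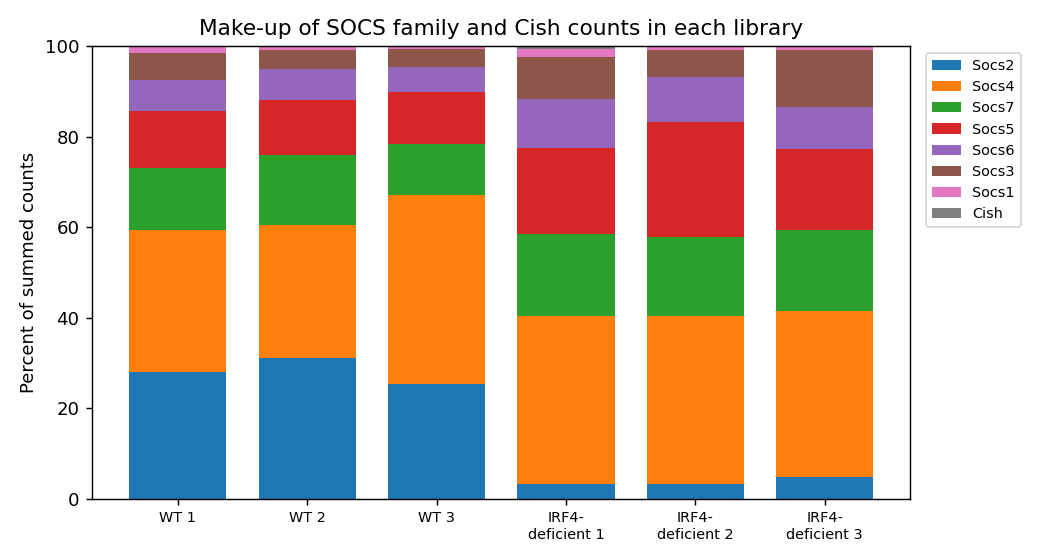
Percent of the summed counts of Socs1 to Socs7 and Cish that each gene holds in each library (3 WT, then 3 IRF4-deficient). The Socs2 share at the base of each bar goes from 25.4 to 31.1% in WT to 3.18 to 4.78% in IRF4-deficient libraries, and the Socs3 share is highest in IRF4-deficient replicate 3.

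Set against gene length, the members spanned a wide range. By CPM per kilobase of merged exons (GENCODE M21), the WT order was Stat5b (12.9 ± 0.666), Socs4 (9.98 ± 2.80), Stat5a (8.37 ± 0.619), Socs2 (5.87 ± 0.625), Socs5, Socs7, Socs3, Socs6, Socs1 and Cish (0.0428 ± 0.0217). Neighbours in this order overlapped for Stat5b and Socs4, Socs4 and Stat5a, Socs5 and Socs7, and Socs7 and Socs3. In IRF4-deficient cells Socs2 moved from 4th to 8th place, at 0.515 ± 0.161, where it overlapped Socs1 at 0.512 ± 0.188. The place of Socs2 in WT depends on the length used, since its merged exons span 9531 bases but its longest principal transcript 2222. By the principal transcript it was the highest member in WT, at 25.2 ± 2.68 CPM per kilobase, ahead of Stat5a at 15.4 ± 1.14, and the 7th in IRF4-deficient cells, at 2.21 ± 0.692.

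The STAT5 genes lie next to each other on chromosome 11, Stat5b on the minus strand from 100780731 to 100850724 and Stat5a on the plus strand from 100859351 to 100885169. Stat5a stood at 60.0, 64.0 and 55.2 CPM in WT replicates 1 to 3 and at 64.5, 59.6 and 61.1 CPM in IRF4-deficient replicates 1 to 3. Stat5b stood at 70.3, 75.8 and 68.8 CPM and at 74.6, 87.4 and 69.8 CPM in the same libraries. The groups overlapped for both genes. The log2 fold changes were 0.05 (SE 0.12, 95% interval -0.21 to 0.30) for Stat5a and 0.11 (SE 0.12, 95% interval -0.14 to 0.36) for Stat5b, with edgeR adjusted p-values of 0.836 and 0.596. The intervals limit any decrease to 0.867 and 0.905 times the WT level and any increase to 1.23-fold and 1.28-fold. Stat5a held 45.4 ± 0.839% of the summed counts of both genes in WT and 44.5 ± 3.46% in IRF4-deficient libraries (exact permutation p = 1). Of the 50-base windows of Stat5a transcripts 8.21% also occur in Stat5b, and 10.98% the other way round, so reads from those stretches cannot be assigned to 1 gene.

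The neighbouring Stat3, whose last 72 bases overlap the end of Stat5a on the opposite strand, rose with a log2 fold change of 0.42 (SE 0.08, edgeR adjusted p = 0.000961), from 302, 334 and 338 CPM in WT replicates 1 to 3 to 455, 426 and 421 CPM in IRF4-deficient replicates 1 to 3. Stat2, which serves type I interferon signalling, fell by 0.74 on the log2 scale (SE 0.08). Stat4 and Stat6 were not called. Of the 4 JAK genes, Tyk2, which serves interferon and IL-12 receptors, fell (log2 fold change -0.76), and Jak3, the partner of the common gamma chain, rose (0.54). Jak2, the kinase of GM-CSF and growth hormone receptors, stood at 906 to 1125 CPM in WT and 843 to 996 CPM in IRF4-deficient libraries and missed the threshold (edgeR adjusted p = 0.115). Leaving out WT replicate 1 made it a called decrease (edgeR adjusted p = 0.0162).

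Upstream of STAT5, receptor genes moved both ways, with 3 of 16 tested called higher and 5 lower and a median log2 fold change of -0.01. Over all tested genes 9.87% were called higher and 10.5% lower, and these shares are the background for each list count that follows. No list was tested as a set. Csf2rb, the shared signalling chain of the GM-CSF, IL-3 and IL-5 receptors, stood at 504, 546 and 567 CPM in WT replicates 1 to 3 and at 249, 275 and 315 CPM in IRF4-deficient replicates 1 to 3 (log2 fold change -0.95, edgeR adjusted p = 3.89e-07). Its close copy Csf2rb2 fell as well (-0.70), and reads of these relatives may be shared. Flt3 and Kit, tyrosine kinase receptors that can also engage STAT5, fell with -0.72 and -0.63. Il7r (1.11) and Il2rg (0.38), the common gamma chain gene, rose. Il2ra (-1.36) and Il2rb (1.43), chains of the IL-2 receptor at under 12 CPM, were also called, but each lost its call in 5 of the 14 other fits that tested it, in 4 of them by leaving out libraries. Without WT replicate 3 the adjusted p of Il2ra was 0.19, and without WT replicate 2 that of Il2rb was 0.184 (edgeR). Csf2ra, the GM-CSF-binding chain, and Il4ra, the IL-4 receptor chain, were not called. Of 10 tested gp130, IL-10 and G-CSF type receptor genes 4 were called higher, Il12rb2 (0.85), Lifr (1.22), Il27ra and Csf3r, and 1 lower, Il10ra (-1.08). Among 4 interferon receptor genes Ifnar1 and Ifnar2 were called lower and Ifngr1 higher, but Ifnar1 was not called without IRF4-deficient replicate 1 or WT replicate 2 (edgeR adjusted p = 0.104 and 0.0907). Of 8 tested cytokine genes 0 were called higher and 2 lower, Ebi3 (-1.25) and Il15 (-1.67), and 9 of the 25 listed cytokine genes, Csf2 among them, were not analysed here.

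Other brakes on JAK-STAT signalling also moved both ways, with 3 of 14 called higher and 5 lower and a median log2 fold change of -0.10. Usp18, which restrains the type I interferon receptor, fell (-1.70), as did the ubiquitin ligase gene Cblb (-0.93), the phosphatase gene Ptpn2 (-0.71) and the STAT inhibitor genes Pias1 (-0.31) and Pias3 (-0.72). Pias1 was not called without IRF4-deficient replicate 1 or 2 or WT replicate 2 or 3 (edgeR adjusted p = 0.0594 to 0.222), and Pias3 not without WT replicate 2 or 3 (0.0659 and 0.0581). The phosphatase genes Ptpn1 (0.52), Ptpn6 (0.34) and Ptprc (0.23) rose, the last of them not called without IRF4-deficient replicate 2 or WT replicate 2 (edgeR adjusted p = 0.0548 and 0.0705). The machinery that SOCS boxes recruit showed no called gene, 0 of 9 by edgeR with 1 at an unadjusted p under 0.05, and 0 of 9 by DESeq2 or limma-voom as well. Among those 9, Cul5, the scaffold of the SOCS box ligase, stood at 70.5 to 79.0 CPM in WT and 60.6 to 69.0 CPM in IRF4-deficient libraries. Of 15 tested genes for other SOCS box proteins 2 were called lower and 0 higher. Asb2, whose product targets filamins, stood at 443, 532 and 458 CPM in WT replicates 1 to 3 and at 272, 268 and 332 CPM in IRF4-deficient replicates 1 to 3. Spsb1 fell with a log2 fold change of -1.49.

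Genes outside the family that STAT5 is known to regulate moved both ways. Of 15 tested 2 were called higher and 5 lower, and their median lay at -0.21 on the log2 scale. The cyclin gene Ccnd2 fell (-1.46) from 227 to 288 CPM in WT to 82.4 to 110 CPM in IRF4-deficient libraries, while its relative Ccnd3 rose (1.07) from 35.7 to 54.1 to 72.5 to 100.2 CPM. The survival genes Bcl2 (1.07) and Mcl1 (-0.32) moved in opposite directions, and Ccnd1 and Myc were not called. Bcl6, which STAT5 is known to repress, fell as well (-0.56), as did the cell cycle inhibitor gene Cdkn1a (-1.03) and Il2ra. Bcl2 was not called without IRF4-deficient replicate 2 or WT replicate 2 (edgeR adjusted p = 0.0635 and 0.0927), and Bcl6 not without IRF4-deficient replicate 2 (0.0702).

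**Figure D4:**
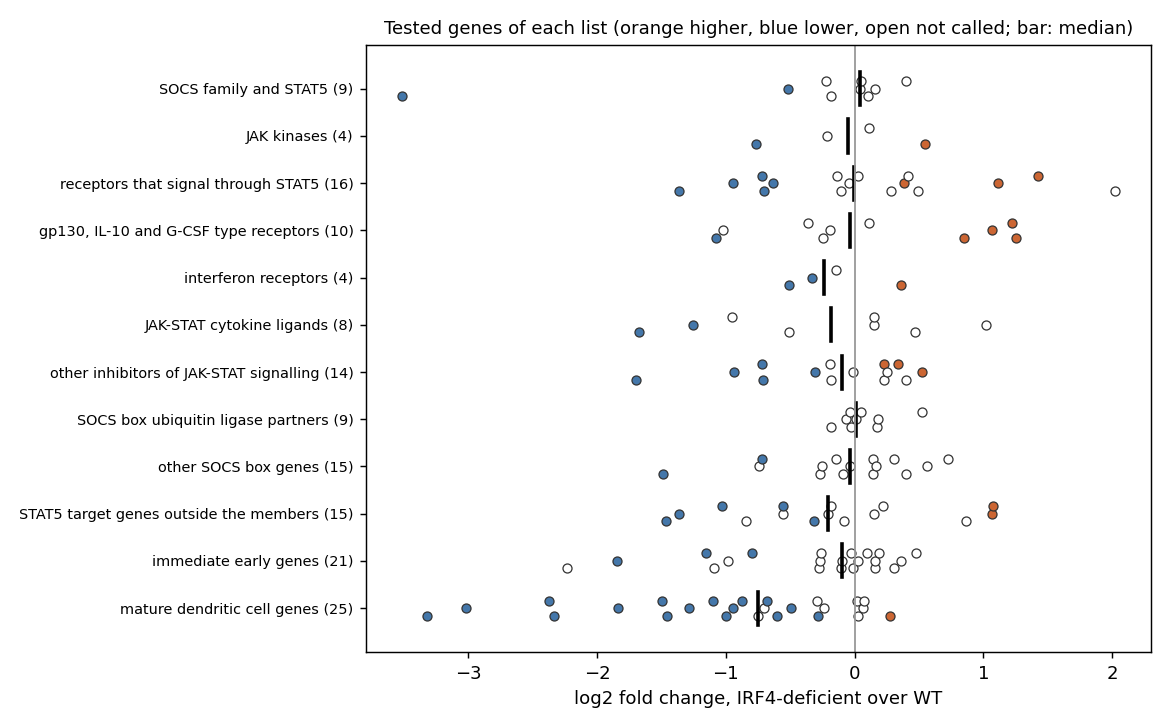
Log2 fold change, IRF4-deficient over WT, of each tested gene of the SOCS and STAT5 set and of 11 related gene lists (orange called higher, blue called lower, open not called, black bars list medians, number of tested genes in brackets). Socs2 is the lowest point of the first row, the SOCS box ligase partners have no called gene, and the mature dendritic cell genes have a median of -0.75.

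Socs2 is also known as a gene of mature dendritic cells, and the list of such genes moved with it. Of 25 tested 16 were called lower and 1, Cd274, higher, with a median log2 fold change of -0.75. Ccr7, the receptor that guides mature cells to lymph nodes, fell from 214 to 254 CPM in WT to 23.8 to 32.3 CPM in IRF4-deficient libraries. The summed level of all 26 listed genes was 4710 to 5668 CPM in WT and 3020 to 3446 CPM in IRF4-deficient libraries. Socs2 lost a larger part of its level than that sum, in which the more abundant genes weigh most. The listed genes Nudt17 and Ccr7 fell nearly as far, with log2 fold changes of -3.32 and -3.02 beside -3.52 for Socs2. Of the 25 tested genes 8 were not called in either direction. The part of this cell state in the decrease of Socs2 was not tested. Cd274 was not called without IRF4-deficient replicate 1 or 3, or WT replicate 1 or 2 (edgeR adjusted p = 0.0838, 0.139, 0.174 and 0.102), nor without robust shrinkage (0.0555). Immediate early genes, a group to which Socs3 is often counted, had 3 of 21 called lower, Klf6, Atf3 and Ier3, and 0 higher. Ier3, whose groups overlapped, was not called without IRF4-deficient replicate 2 or 3 or WT replicate 1 or 2 (edgeR adjusted p = 0.0858 to 0.112). Without WT replicate 3 the number called lower was 10.

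Markers of other spleen cells give the background for genes as low as Cish and Socs1. Summed over their lists, T cell markers stood at 39.0 to 53.1 CPM in WT and 50.3 to 64.4 CPM in IRF4-deficient libraries, and B cell markers at 114 to 188 and 117 to 158 CPM. Markers of NK cells reached at most 14.5 CPM and of neutrophils at most 12.6 CPM in any library. Monocyte markers were higher in IRF4-deficient libraries, 2218 to 2882 CPM beside 853 to 1229 CPM in WT, with 6 of 10 called higher. Plasmacytoid dendritic cell markers were 670 to 769 CPM against 479 to 555 CPM in WT, and cDC1 markers 1084 to 1273 against 1803 to 1926 CPM, although 6 of 10 cDC1 markers were called higher and 2 lower. No listed marker was at 0 in all 6 libraries, those without a row were not analysed here, and the part of these cells in the levels of the SOCS and STAT5 genes was not tested.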

How the data were processed

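RNA-seq of splenic cDC2s was analysed from 1 table in which the authors deposited raw counts per gene symbol, with 3 IRF4-deficient and 3 WT columns. The build was mm10, and STAR, HTSeq and DESeq2 were used, per the submitters' processing notes. The sources used here do not give versions, annotation, strand setting or how the 14535 rows were chosen. WT columns were matched to titles through their source names, and 0 columns were left unused. Replicates differed beyond counting noise (chi-square per degree of freedom 7.66 to 15.9).

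Genes kept by filterByExpr (11934) were TMM-scaled and tested in edgeR 4.0.16 (R 4.3.3) with robust glmQLFit and glmQLFTest, genotype only, and Benjamini-Hochberg adjustment over all. Intervals use the SE from the F statistic. Ratios and shares were compared with exact permutation tests in SciPy 1.17.1. Locations and lengths are from GENCODE M21 (GRCm38), and motifs were matched by letters. Members, gene lists and tests were chosen with earlier results of these data known. Named are Irf4, the members, up to 4 genes per list with the smallest p, list genes with a mean of at least 50 CPM, genes of counts of 5 or fewer, and the 5 genes most like Socs2 and Socs3. Genes near Socs2 were chosen after their values were seen. On simulated data with 67, 66 and 66 genes changed 1.5-fold, 2-fold and 4-fold, 34.3, 81.8 and 100% were recovered among 11949 tested, with 4 false calls of 147. The simulation gave every gene the same dispersion, changed only genes above a minimum count, and changed far fewer genes than were called here. Its rates therefore check the code and need not hold for these data. Alternatives were DESeq2 1.42.0, limma-voom (limma 3.58.1), other scaling, filters and shrinkage, a replicate block and each library left out. Leaving out replicate 3 of both groups and using principal transcript lengths were added after seeing the data. Results on 1 gene and 1 gene list are not reported here.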

Additional observations from a re-analysis of the deposited data

How the results depend on the processing

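In 15 other fits, 8 of the 9 tested members kept the result of the main fit (Socs1 in 14, as it failed the filter at 5 CPM). Of these only Socs2 was a called gene, and the others stayed not called. Socs4, the other called member, was called in 11. Between 1 and 2 members were called when 1 library was left out, and 1 when replicate 3 of both groups was (an alternative chosen after seeing the data), which left Socs4 uncalled (log2 fold change -0.32, edgeR adjusted p = 0.155). These fits have fewer samples. Over the fits without 1 library the Stat5a share of both STAT5 genes differed by -2.00 to 1.08 percentage points between the groups, the Socs1 share of the family by -0.0065 to 0.494 and the Cish share by -0.143 to 0.162, so these have no stable direction. List counts moved by over 1.5 times in the immediate early genes (3 lower, 10 without WT replicate 3 and 9 without replicate 3 of both groups), the other JAK-STAT inhibitors (5 lower, 3 without WT replicate 2 or 3), the STAT5 targets (5 lower and 2 higher, 3 and 1 without IRF4-deficient replicate 2), and by 1 gene in the JAK, gp130 type and interferon receptor and mature dendritic cell lists. Genes called numbered 2429, and 1779 to 2431 without 1 library. Equal replicate numbers did not pair the libraries: the correlations of same-numbered deviations were -0.005, 0.051 and -0.011, and not every library correlated best with its own number. With the replicate block 2267 genes and the same number of members (2) were called, while Bcl2 and Pias1 were not (edgeR adjusted p = 0.052 and 0.0532). Depth limits Cish, whose ratio between the groups has an interval of 0.331 to 3.39. For Socs1 counting error alone gives an interval of 0.585 to 1.43, narrower than that of the edgeR test.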
